A study of Mus musculus with 11 samples.

Results

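Lipocalin 2 (Lcn2), the orosomucoids and other liver genes that cytokines of the interleukin 6 type induce in the acute phase were followed through 11 mouse livers. The members were the 10 genes Lcn2, Orm1, Orm2, Orm3, Hp, Hpx, Steap4, Il1rn, Serpina3n and Socs3. All probe sets that the platform annotation gives to exactly 1 of these symbols were taken, which gave 15 probe sets for the 10 genes, of 22626 probe sets and 12393 genes in all. Livers came from male C57BL/6J mice of 15 to 20 weeks, harvested between 2 and 4 in the afternoon: 5 wild type (WT) and 6 Gsr-null, which lack glutathione reductase, the enzyme that returns oxidised glutathione to its reduced form. The sources used here describe neither the Gsr-null allele nor whether the genotypes were littermates, and no mouse was treated. RNA was measured on single-colour Affymetrix arrays, and values are log2 levels per probe set.

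In infection or injury, macrophages release interleukin 6 and interleukin 1, and hepatocytes answer by changing which proteins they secrete. Interleukin 6 acts through a receptor with the gp130 subunit (Il6st), JAK kinases and the transcription factor STAT3, while interleukin 1 acts through NF-kB and C/EBP factors. Secreted carriers such as haptoglobin, hemopexin and the orosomucoids then rise in plasma, and Socs3, a STAT3 target, closes the loop by inhibiting the receptor complex. Lipocalin 2 binds bacterial iron-carrying siderophores, and it is also stored in granules of neutrophils.

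The labels were first set against Gsr itself and against the arrays. On both probe sets of Gsr the genotypes did not overlap, with Gsr-null lower by differences of -1.83 and -1.84 (limma adjusted p = 1.82e-05 and adjusted p = 0.0331). All 9 hepatocyte markers on the array were above a log2 value of 4 in every sample. Gsr-null samples 2 and 3 had a raised array floor, with a 5th percentile of 1.79 and 1.76 against 1.53 to 1.62 elsewhere. A measure of RNA integrity and labelling, the 3' minus 5' difference of controls for Gapdh and Actb, lay between 0.544 and 0.703 in WT samples 2 and 4 and Gsr-null samples 1, 2 and 3. It lay between 1.20 and 1.75 in the other 6 samples.

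Lcn2 and Orm2 were far higher in Gsr-null than in WT livers, with 31.7-fold and 12.3-fold differences between the geometric means, and the genotypes did not overlap. Orm1 and Serpina3n averaged 1.52-fold and 1.60-fold higher, with groups that overlapped. Steap4, Hp and Hpx averaged 1.29-fold, 1.09-fold and 1.12-fold higher, Socs3 averaged lower, and Il1rn stayed near the floor of the arrays. The spread among Gsr-null livers was wide, and no member passed the test over all probe sets.

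Testing was kept to probe sets that exceeded 4 on the log2 scale in 5 or more samples, and these were 10 of the 15 probe sets and 8 of the 10 genes, all but Orm3 and Il1rn. By limma, 0 of the 8 genes and 0 of the 10 probe sets were called at an adjusted p under 0.05, where 0.432% of all tested genes and 0.387% of all tested probe sets were called. Lcn2 passed the filter only through its Gsr-null samples, the group where it is high, so it is left out of the counts in the rest of this paragraph. Of the other 7 genes, which exceeded 4 in every WT sample, Orm1, Orm2 and Serpina3n were higher at an unadjusted p under 0.05, 3 of 7, against 3.34% of all tested genes in that direction. The groups did not overlap for Orm2, 1 of 7, against 0.648% of all tested genes with every Gsr-null sample higher. The mean was higher in Gsr-null livers for 6 of the 7, against 42.7% of all tested genes, and lower for Socs3, against 57.3%. The median difference of the 7 was 0.37, and that of all 6022 tested genes -0.032. The members were chosen with earlier results of these data known, so these counts are description and no support.

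**Figure D1:**
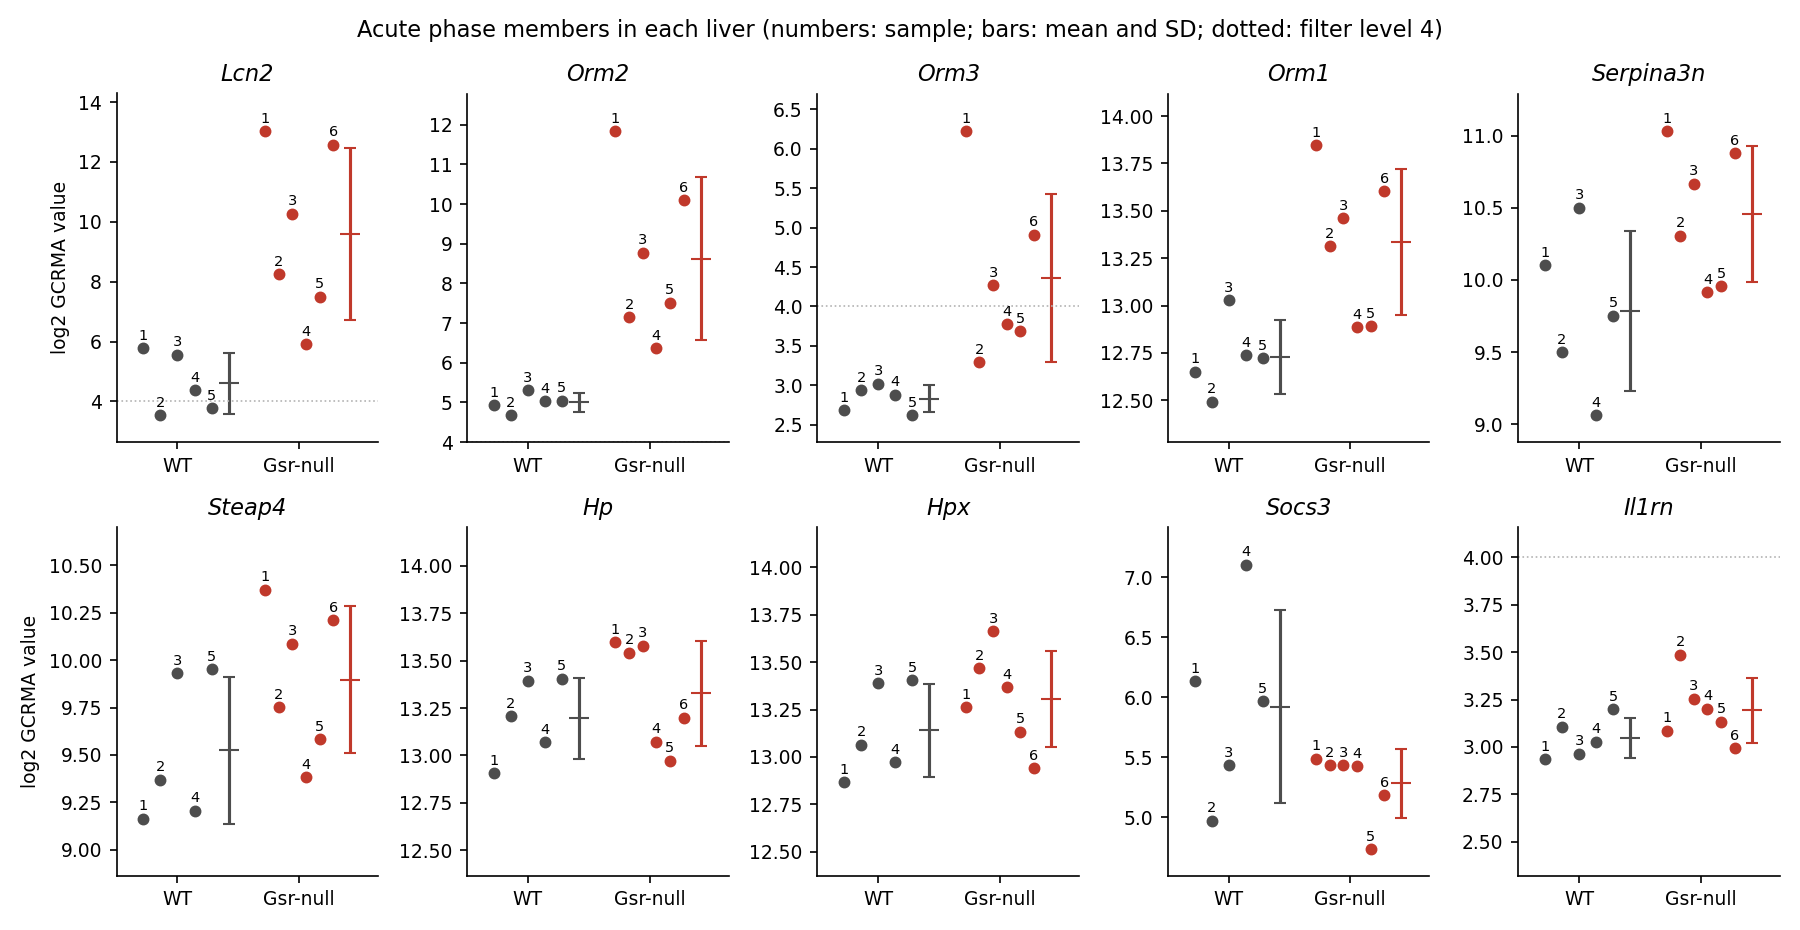
Log2 value of each member's representative probe set (y axis, scaled per gene) in 5 WT and 6 Gsr-null livers. Points are samples with their numbers, bars show the mean and SD, and the dotted line is the filter level of 4. Lcn2, Orm2 and Orm3 have no overlap between the groups, with Gsr-null sample 1 highest in each.

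Lcn2, the siderophore-binding lipocalin, was 5.79, 3.53, 5.56, 4.37 and 3.77 in WT samples 1 to 5. In Gsr-null samples 1 to 6 it was 13.03, 8.25, 10.27, 5.90, 7.50 and 12.58. The lowest Gsr-null sample, number 4, was just above the highest WT sample, number 1, while Gsr-null samples 1 and 6 were far above it. The Gsr-null values spread over 7.12 on the log2 scale and the WT values over 2.26. The WT mean of Lcn2 was 4.60 ± 1.03 (SD, n = 5) and the Gsr-null mean 9.59 ± 2.86 (SD, n = 6), a difference of 4.98 (SE 1.17, limma adjusted p = 0.146), with a 95% interval of 2.44 to 7.53. An exact two-sided permutation test of the means over the 462 possible label assignments gave p = 0.00433, the smallest it can give. Of all 6022 tested genes Lcn2 had the highest difference and stood 50th by p. Lcn2 joined these genes only through its high Gsr-null samples, so its ranks are description and no support. Its SD stood 5th of the 6022 among Gsr-null samples and 51st among WT samples.

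Several members placed the Gsr-null livers in 1 order, given further on. Windows of 250 bases were read for the 8 of 10 members in the RefSeq promoter table of GRCm38.p6, all but Orm1 and Hp. Each window lay upstream of a start given by that table. Windows of Orm3 and Serpina3n reached past the start of the RefSeq gene record, so they hold bases inside the gene. The Socs3 window, with its STAT match, and all but the first Il1rn window lay wholly inside the gene record. Both strands were searched for the STAT motif TTCNNNGAA, the C/EBP motif TTGCNNAA and the kappaB consensus, and no match overlapped another. Among 32526 distinct promoter windows of that length, 7.04% held the STAT motif, 9.57% the C/EBP motif and 7.28% the kappaB motif. The C/EBP motif was found for 5 of the 8 genes (Lcn2, Orm2, Orm3, Hpx and Steap4), the STAT motif for 2 (Steap4 and Socs3) and the kappaB motif for 1 (Steap4, with 2 matches). The windows of Il1rn and Serpina3n held none of these letters. A match is a run of letters only, and binding was not measured here. The windows of Lcn2, Orm2 and Orm3, whose groups did not overlap, and of Steap4, which held all 3 motifs, read 5′ to 3′ on the gene's strand with the matches in capitals.
Lcn2, chr2:32387740-32387989, minus strand: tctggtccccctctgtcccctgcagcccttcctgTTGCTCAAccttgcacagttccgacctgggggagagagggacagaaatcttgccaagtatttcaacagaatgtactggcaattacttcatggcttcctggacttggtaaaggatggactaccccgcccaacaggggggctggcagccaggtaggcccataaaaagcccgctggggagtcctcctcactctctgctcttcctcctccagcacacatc
Orm2, chr4:63362199-63362448, plus strand: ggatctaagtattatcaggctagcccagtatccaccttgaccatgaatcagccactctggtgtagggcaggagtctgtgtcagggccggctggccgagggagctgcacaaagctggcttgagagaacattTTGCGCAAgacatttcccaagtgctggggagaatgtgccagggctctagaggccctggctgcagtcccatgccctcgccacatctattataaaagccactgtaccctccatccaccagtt
Orm3, chr4:63355908-63356157, plus strand: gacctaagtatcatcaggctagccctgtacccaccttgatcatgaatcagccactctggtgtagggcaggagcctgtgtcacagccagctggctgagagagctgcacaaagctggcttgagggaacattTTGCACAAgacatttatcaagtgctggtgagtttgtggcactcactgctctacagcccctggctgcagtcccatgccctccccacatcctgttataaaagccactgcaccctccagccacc
Steap4, chr5:7960222-7960471, plus strand: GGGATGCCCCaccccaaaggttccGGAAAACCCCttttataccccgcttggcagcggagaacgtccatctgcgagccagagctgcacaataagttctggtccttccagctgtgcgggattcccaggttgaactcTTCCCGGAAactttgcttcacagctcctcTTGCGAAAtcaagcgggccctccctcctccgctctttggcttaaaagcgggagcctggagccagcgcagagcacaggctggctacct
Counted back from the 3' end of the window, the C/EBP match TTGCGCAA of Orm2 lay at -120 to -113 and TTGCACAA of Orm3 at -121 to -114. That of Lcn2, TTGCTCAA, lay at -216 to -209. The Orm3 window ended at 63356157, past the start of its RefSeq gene record at 63356069, so its match lay nearer to that start. The windows of Orm2 and Orm3 were 89.0% identical over 245 aligned bases.

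The orosomucoids, also called alpha-1-acid glycoproteins, are plasma carriers of basic drugs and lipids. Their genes lie next to each other on chromosome 4 within 21.3 kb, in the order Orm1, Orm3, Orm2 (GRCm38.p6). Orm2 was 4.94, 4.67, 5.30, 5.03 and 5.04 in WT samples 1 to 5 and 11.84, 7.14, 8.78, 6.37, 7.51 and 10.10 in Gsr-null samples 1 to 6. WT samples lay close together, and the lowest Gsr-null sample, number 4, stood clear of all of them. The SD was 0.228 in WT and 2.05 in Gsr-null livers, a 9.0-fold ratio. Orm2 differed by 3.63 (SE 0.805, limma adjusted p = 0.112), with a 95% interval of 1.87 to 5.38 and an exact permutation p = 0.00433.

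Orm3 did not pass the filter, since only Gsr-null samples 1, 3 and 6 exceeded 4. It was 2.68, 2.94, 3.02, 2.88 and 2.62 in WT samples 1 to 5 and 6.22, 3.30, 4.27, 3.77, 3.69 and 4.91 in Gsr-null samples 1 to 6. The groups did not overlap here either, as for 0.539% of all 22626 probe sets in that direction. The difference of the means was 1.53 (exact two-sided permutation p = 0.00433). Without the filter limma gave it an adjusted p = 0.359.

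Orm1 was 12.65, 12.49, 13.03, 12.74 and 12.72 in WT samples 1 to 5 and 13.85, 13.31, 13.46, 12.89, 12.89 and 13.60 in Gsr-null samples 1 to 6. Gsr-null samples 1, 2, 3 and 6 were above the highest WT sample, number 3, and samples 4 and 5 were not. Orm1 differed by 0.61 (SE 0.184, limma adjusted p = 0.296, exact permutation p = 0.013), with a 95% interval of 0.21 to 1.01. The highest value of any probe set on these arrays was 14.4 to 14.7, so Orm1, Hp and Hpx lay near the top of the scale in both genotypes. Whether probes of 1 orosomucoid bind transcripts of another was not tested.

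Serpina3n, a secreted inhibitor of serine proteases, was 10.10, 9.50, 10.50, 9.06 and 9.75 in WT samples 1 to 5 and 11.03, 10.31, 10.67, 9.92, 9.96 and 10.88 in Gsr-null samples 1 to 6. Gsr-null samples 1, 3 and 6 were above every WT sample, and the other 3 lay among the WT values. The difference was 0.68 (SE 0.278, limma adjusted p = 0.513, exact permutation p = 0.0606), with a 95% interval of 0.07 to 1.28. The SD was 0.553 in WT and 0.472 in Gsr-null livers, so the wide Gsr-null spread of Lcn2 and Orm2 was not seen here.

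Steap4, a membrane reductase of iron and copper, had 2 tested probe sets. On the first it was 9.16, 9.37, 9.93, 9.21 and 9.95 in WT samples 1 to 5 and 10.37, 9.75, 10.09, 9.38, 9.58 and 10.21 in Gsr-null samples 1 to 6. Samples 1, 3 and 6 were again the ones above every WT sample. The difference was 0.37 (SE 0.218, limma adjusted p = 0.755), and on the second probe set, which lay at 3.12 to 5.60, it was 0.31 (SE 0.43, limma adjusted p = 0.966).

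Haptoglobin (Hp) captures free haemoglobin and hemopexin (Hpx) captures free haem. Hp was 12.91 to 13.41 in WT and 12.97 to 13.60 in Gsr-null livers, with samples 1, 2 and 3 above every WT sample. Hp differed by 0.13 (SE 0.155, limma adjusted p = 0.95), and its 95% interval ran from -0.21 to 0.47. Leaving out WT sample 1, Gsr-null sample 1, Gsr-null sample 3 or Gsr-null sample 5 moved the difference of Hp to 0.058, 0.076, 0.080 and 0.20. Hpx was 12.87 to 13.41 in WT and 12.94 to 13.66 in Gsr-null livers, with samples 2 and 3 above every WT sample and sample 6 at 12.94. Hpx differed by 0.17 (SE 0.155, limma adjusted p = 0.931), with an interval from -0.17 to 0.50, and by 0.098 without WT sample 1 and 0.095 without Gsr-null sample 3. A difference over 0.50, or 1.42-fold, lay outside both intervals, at the upper ends of the log2 scale noted above.

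Il1rn encodes the interleukin 1 receptor antagonist. Its 3 probe sets were at 1.99 to 3.20 in WT and 2.05 to 3.49 in Gsr-null livers, and none exceeded 4 in any sample. On the highest of them the difference was 0.15 (exact permutation p = 0.121), and 0.087 without Gsr-null sample 2, at levels near the floor of the arrays.

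Socs3, the feedback inhibitor, averaged lower in Gsr-null livers. Its representative probe set was 6.13, 4.97, 5.43, 7.11 and 5.97 in WT samples 1 to 5 and 5.49, 5.43, 5.43, 5.42, 4.74 and 5.19 in Gsr-null samples 1 to 6. WT sample 4 was the highest, and no Gsr-null sample exceeded the 3 highest WT samples. The difference was -0.64 (SE 0.312, limma adjusted p = 0.638), with an interval from -1.32 to 0.041, and without WT sample 4 it was -0.34 (limma adjusted p = 0.826). The other tested probe set differed by -0.76 (limma adjusted p = 0.557), while the one below the filter differed by -0.22. Both tested probe sets carry the suffix _x_at, which marks probes that can bind other transcripts.

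**Figure D2:**
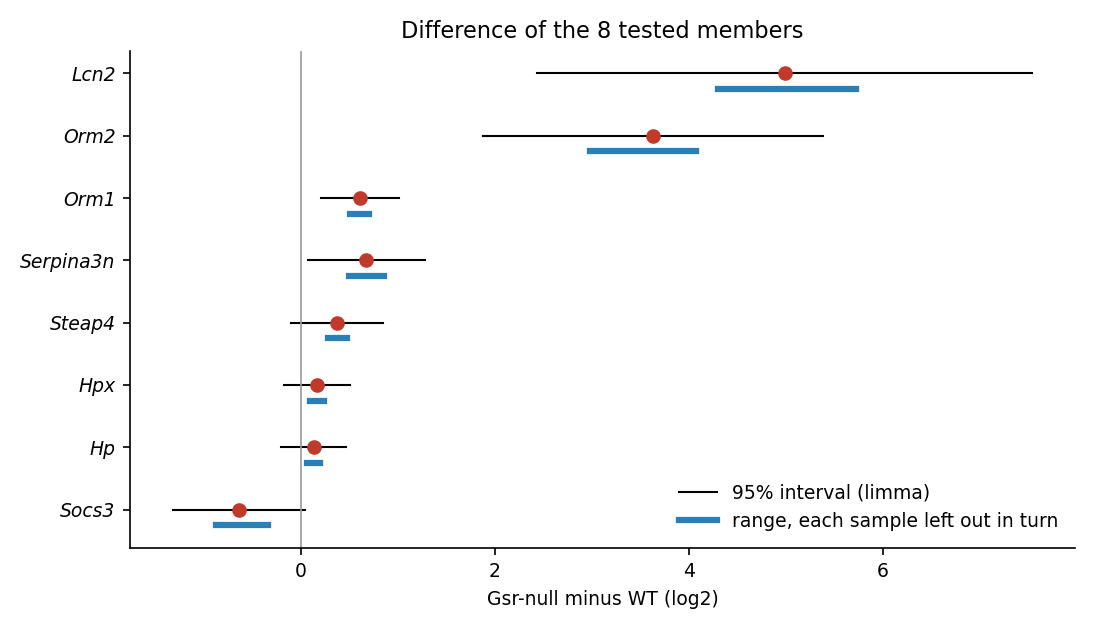
Gsr-null minus WT on the log2 scale (x axis) for the 8 tested members. Points are the limma estimates, black lines the 95% intervals and blue bars the range when each sample was left out in turn. Lcn2 and Orm2 lie at 4.98 and 3.63 with wide intervals, and the other 6 lie between -0.64 and 0.68.

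The Gsr-null livers formed a graded series, and several members placed them in the same order. Lcn2 ran from sample 1 through 6, 3, 2 and 5 down to 4. Of the other 7 tested members, Orm1, Steap4 and Serpina3n held the same order on their representative probe sets. The last places rested on small gaps, with samples 5 and 4 at 12.8925 and 12.8876 for Orm1 and at 9.957 and 9.917 for Serpina3n. This order, taken from Lcn2 after the values were seen, was held by 21 of 6022 tested genes (0.349%), Lcn2 included, among them Saa1, Saa2 and Lbp. Orm2 differed from it only in placing sample 5 above sample 2, and Orm3 kept samples 1, 6 and 3 on top. The second tested probe set of Steap4 did not hold the order, with sample 6 at 3.75 below sample 3 at 4.75 and sample 2 at 4.34. Hp, Hpx, Socs3 and Il1rn ran in other orders, with Hpx lowest in sample 6.

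Counted by sample, Gsr-null sample 3 had 7 of the 8 tested members above the highest WT value, sample 1 had 6, and samples 2 and 6 had 5. Samples 4 and 5 had 2 each, Lcn2 and Orm2. Without Lcn2, the shares of the other 7 members above the highest WT value were 85.7% in sample 3, 71.4% in sample 1 and 57.1% in samples 2 and 6. For all tested genes they were 22.4%, 12.4%, 17.4% and 11.6% in samples 3, 1, 2 and 6. In samples 4 and 5 the share of the 7 was 14.3%, against 24.1% and 16.5% of all tested genes. As the members were chosen with earlier results known, these shares too are description and no support.

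**Figure D3:**
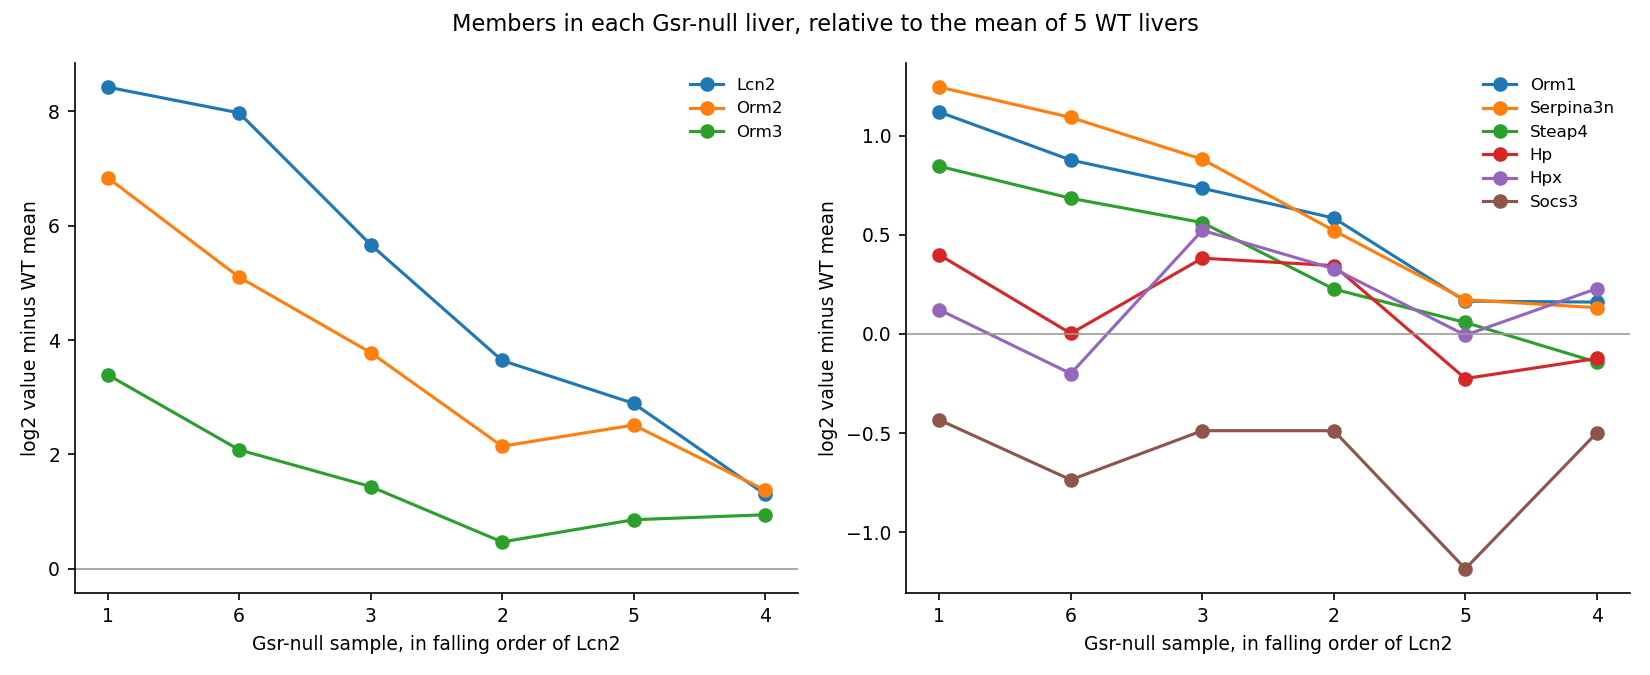
Log2 value minus the WT mean (y axis) of 9 members in each Gsr-null liver, with samples on the x axis in falling order of Lcn2. The left panel spans a wider scale than the right. Lcn2, Orm1, Serpina3n and Steap4 fall from sample 1 to sample 4, whereas Hp, Hpx and Socs3 do not.

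Control probe sets moved with part of this pattern. Gsr-null samples 1, 2 and 3 had the lower 3' minus 5' difference and samples 4, 5 and 6 the higher, as did WT samples 1, 3 and 5. Within the lower set (3 Gsr-null, 2 WT) Lcn2 differed by 6.56, Orm2 by 4.40, Orm3 by 1.68, Orm1 by 0.93, Serpina3n by 1.39 and Steap4 by 0.78. Within the higher set (3 and 3) they differed by 3.62, 2.90, 1.35, 0.33, 0.13 and 0.042. Hp differed by 0.43 and -0.15, Hpx by 0.45 and -0.072, and Socs3 by -0.59 and -0.73 in the lower and higher sets. Hp and Hpx therefore had opposite signs in the sets, and the difference between sets was not tested. With the set as a block in the fit, Lcn2 differed by 4.93 (limma adjusted p = 0.131) and Orm2 by 3.57 (limma adjusted p = 0.107).

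No gene was called in any list of the pathway upstream of these genes, where 0.432% of all tested genes were called. At that share, short lists can hold 0 called genes with nothing particular to them. The same share stands beside each count of called genes below. Like the members, the lists were chosen with earlier results of these data known, so their counts are description and no support. The ligands of the interleukin 6 family were below the filter, and Il6 was 1.00 to 1.55 in WT and 0.76 to 1.61 in Gsr-null livers. Of 3 tested receptors 0 were called, with a median difference of -0.27, and Il6st, the shared gp130 subunit, differed by -0.27 (SE 0.169, limma adjusted p = 0.797). Of 9 tested JAK kinases, STATs and C/EBP and HNF4 factors 0 were called, with differences between -0.19 (Jak1) and 0.13 (Stat5b) and Cebpa at -0.19 (limma adjusted p = 0.846). Stat3, named after its value was seen, differed by 0.023 (limma adjusted p = 0.999). Transcript levels do not show how active these proteins were.

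In the list of JAK-STAT inhibitors other than Socs3, 6 of 6 tested genes averaged lower, against 57.3% of all tested genes. The median was -0.16 and 0 were called. The 6 were Socs2, Cish and the phosphatases Ptpn1, Ptpn2, Ptpn6 and Ptpn11. The phosphatases differed by only -0.17 (Ptpn6) to -0.023 (Ptpn2). Socs2, a target of growth hormone signalling through STAT5, was 5.90 to 7.51 in WT and 4.26 to 6.39 in Gsr-null livers. It differed by -1.36 (SE 0.408, limma adjusted p = 0.283), and Cish, another STAT5 target, by -0.90 (limma adjusted p = 0.692). In the interleukin 1 and NF-kB list 0 of 9 tested genes were called, with a median of 0.068, Il1rap at -0.26 (limma adjusted p = 0.692) and Myd88 at -0.18 (limma adjusted p = 0.797). Il1b and Tnf averaged 2.77 and 2.29 in WT and 2.87 and 2.23 in Gsr-null livers, below the filter.

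Other positive acute phase proteins, most of which rise in plasma in inflammation, averaged higher in 21 of 23 tested genes, against 42.7% of all tested genes. Their median was 0.28. The list also holds the intracellular metallothioneins Mt1 and Mt2. By limma 0 of 23 were called. At an unadjusted p under 0.05 by limma, 4 of 23 were higher, Saa1, Saa2, Mt1 and Mt2, against 3.34% of all tested genes in that direction. Whether the probe sets of Saa1 (_s_at), Saa2 (_x_at) and Mt1 (_s_at) bind related transcripts was not tested. Saa1, a serum amyloid A apolipoprotein, differed by 2.94 (SE 0.876, limma adjusted p = 0.282) and Mt1, a metallothionein, by 2.33 (SE 0.566, limma adjusted p = 0.16). Gsr-null samples 1, 3, 6 and 2 had 18, 17, 12 and 9 of the 23 above the highest WT value, and samples 4 and 5 had 2 each. Named after their values were seen, the fibrinogen chain Fgb differed by 0.053 and the iron hormone hepcidin (Hamp) by -2.0 (limma adjusted p = 0.867). Hamp was 3.63 in Gsr-null sample 3 and 11.3 or more in every other liver.

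Negative acute phase proteins, which fall in inflammation, had 5 of 8 tested genes with a higher mean, against 42.7% of all tested genes. Their median was 0.024 and 0 were called. Igf1 differed by 0.15 (limma adjusted p = 0.912) and Ahsg by -0.11 (limma adjusted p = 0.956). Of 11 tested partners in haem, haemoglobin and siderophore handling 0 were called, with Alad, an enzyme of haem synthesis, at 0.57 (limma adjusted p = 0.366) and Tfrc, the transferrin receptor, at 0.88 (limma adjusted p = 0.725). Slc22a17 and Lrp2, described as receptors for lipocalin 2, were below the filter.

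**Figure D4:**
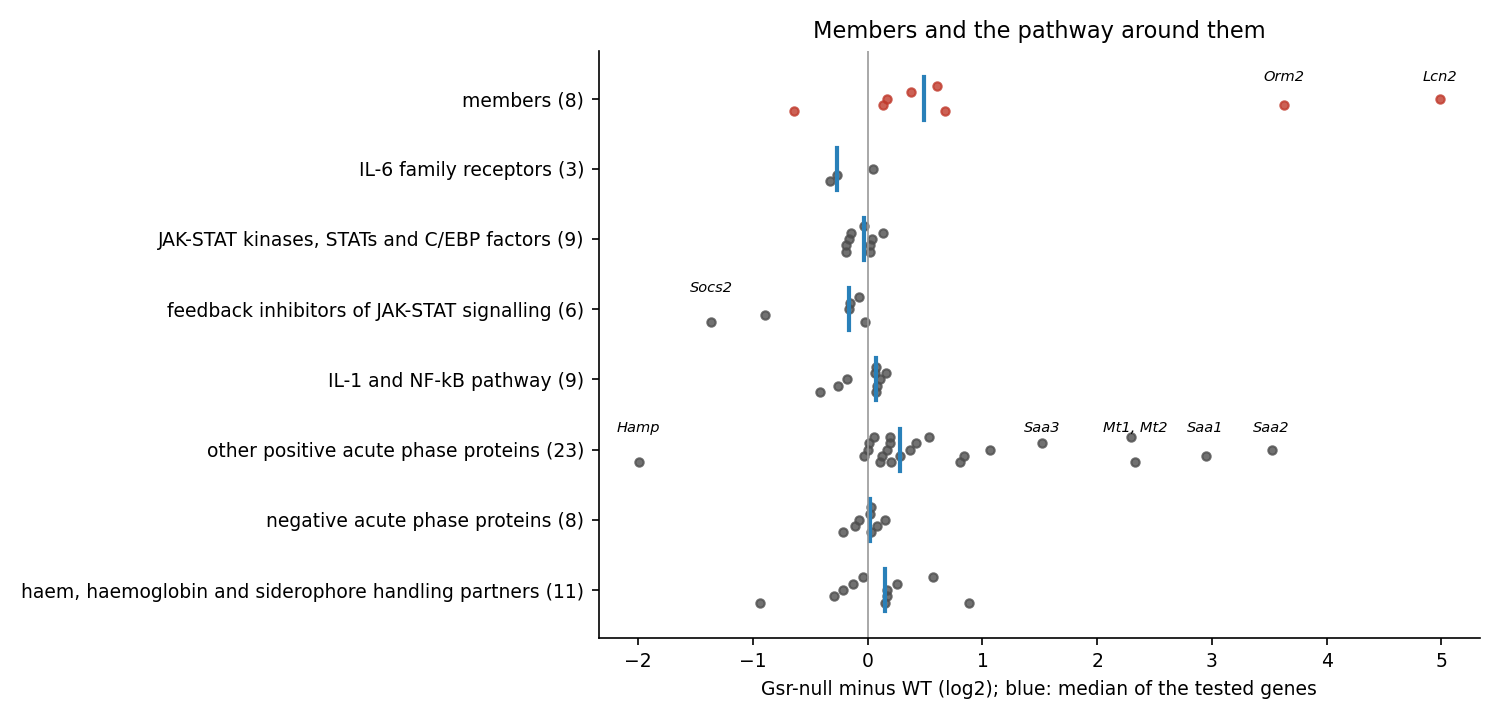
Gsr-null minus WT on the log2 scale (x axis) for the tested genes of the members and 7 lists around them, with the number tested in parentheses. Points are genes and blue lines medians. The JAK-STAT and C/EBP genes lie between -0.19 and 0.13, while Lcn2, Orm2, Saa1, Saa2, Mt1 and Mt2 lie above 2 and Hamp at -2.0.

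Markers of other cell types were read beside these values, since in whole liver a change in cell number and a change in RNA per cell cannot be told apart. Of 9 neutrophil markers on the array 0 passed the filter. S100a8 and S100a9 were 6.63 and 6.50 in Gsr-null sample 1, the sample with the highest Lcn2, and at most 3.63 in every other liver, and the other 7 markers were below 4 in every sample. Among these 7, the granule protein genes Camp, Mpo, Elane and Ngp averaged 1.51, 1.70, 1.79 and 2.27 in WT and 1.72, 1.86, 1.92 and 2.44 in Gsr-null livers, near the array floor. The summed neutrophil level, as the log2 of summed linear values, was 5.50 to 5.69 in WT and 5.50 to 7.81 in Gsr-null livers. Without sample 1 Lcn2 differed by 4.30 (SE 1.06, limma adjusted p = 0.195), Orm2 by 2.98 (SE 0.57, limma adjusted p = 0.0628) and Orm3 by 1.16.

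Kupffer cell and macrophage markers had 0 of 10 tested genes called, with Csf1r at -0.34 (limma adjusted p = 0.915) and Cd68 at 0.32 (limma adjusted p = 0.858), and summed levels of 11.03 to 11.70 in WT and 10.71 to 12.01 in Gsr-null livers. The 1 tested monocyte marker, Plac8, differed by 0.098 (limma adjusted p = 0.979), with summed levels of 5.66 to 5.83 and 5.58 to 6.28. Among 9 tested hepatocyte markers 0 were called, and Tat, tyrosine aminotransferase, differed by 0.58 (limma adjusted p = 0.559), with summed levels of 16.4 to 16.8 in WT and 16.5 to 16.8 in Gsr-null livers. Endothelial, stellate and adipocyte lists had 0 called among 6, 4 and 1 tested genes. Their leading genes were Fcgr2b at -0.38, Lyve1 at 0.62, Col1a2 at 0.89, Col3a1 at 0.87 and Fabp4 at 0.69, with limma adjusted p between 0.363 and 0.885. Summed levels in WT and Gsr-null livers were 9.75 to 10.5 and 9.69 to 10.5, 10.48 to 10.68 and 9.92 to 10.96, and 6.00 to 6.91 and 6.50 to 9.12 for these 3 lists in turn. Cd68 and Lyve1 were not above 4 in every WT sample and passed the filter only with Gsr-null samples, where their means were higher. Their differences are therefore description only. Lists of T and B cells and of cholangiocytes had 0 tested genes. The part of these cells in the differences of the members was not tested.

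The genes most like Lcn2 and Orm2 were sought over the 11 samples, by Pearson's r after subtracting each genotype's mean. For Lcn2 these were Eef1b2 (r = 0.94), Rspry1 (0.93), Saa2 (0.93), Orm2 (0.93), Armcx3 (0.92) and Erdr1 (0.90). For Orm2 they were Neu1 (r = 0.94), Lcn2 (0.93), Limd2 (0.92), Saa3 (0.91), Eef1b2 (0.91) and Rpap3 (0.90). The samples share their arrays and RNA, so these values describe a common pattern only. Likeness says nothing of size, as Eef1b2, a translation elongation factor subunit, ran from 11.27 in Gsr-null sample 4 to 11.70 in sample 1 and differed by -0.029 between genotypes. Saa2, by contrast, was 8.92 in Gsr-null sample 4 and 14.55 in sample 1, and Armcx3 was 3.40 and 6.65 in the same samples with a difference of -0.44 between genotypes.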

How the data were processed

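Liver RNA of 5 WT and 6 Gsr-null mice was measured on arrays. The deposited table holds log2 values per probe set, made by the authors with GCRMA per the submitters' processing notes, which corrects background, normalizes between arrays and summarises probes; the log2 scale was read from the range. Precision is limited by the 11 arrays, with no depth to state.

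Of 22690 probe sets 64 controls were left out. Those above 4 in at least 5 samples (9560) entered a limma fit (version 3.58.1, R 4.3.3) and were adjusted by Benjamini-Hochberg over all of them. A gene was represented by its probe set with the highest mean. On simulated data over 9560 probe sets for Gsr-null against WT, 69% of changes of 1 and 94% of changes of 2 (log2) were recovered. Each simulated probe set had independent noise with the same SD in both genotypes. Lcn2 and Orm2 had SD ratios of 2.79 and 9.0 (Gsr-null over WT), so these shares cannot be carried over to them. Promoters came from RefSeq (GRCm38.p6), and alignments were made with Biopython 1.88. The members and lists were chosen with earlier results of these data known. Named genes are the members, Gsr, the called genes of each list or else its 2 smallest p (1 where under 4 were tested), and the 6 most like Lcn2 and Orm2. Alternatives covered filter, scaling, variance model, blocks, threshold, probe set choice and left-out samples.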

Additional observations from a re-analysis of the deposited data

Results flagged for a closer look

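Among 62 groups of values, 3 had a single sample far outside the range of its group, and chance alone sets apart about 1 in 20 groups, here 3.1. The 62 include genes singled out after their values were seen. Hamp, the iron hormone hepcidin and an interleukin 6 target, was 3.63 in Gsr-null sample 3, while Gsr-null samples other than this one ran from 11.3 to 13.2 and WT samples from 13.07 to 13.25. S100a8 was 6.63 in Gsr-null sample 1, with 2.72 to 3.63 in Gsr-null samples 2 to 6, and S100a9 was 6.50 in the same sample, against 2.74 to 3.49. None of the 30 groups of member values was among these 3.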

How the results depend on the processing

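No member gene or probe set was called under any alternative run, leaving out each sample in turn included. All 211 recomputed differences of the 10 members kept their direction. Lcn2 ranged from 4.10 (array weights) to 5.72 (without Gsr-null sample 4). Orm2 ranged from 2.98 (without Gsr-null sample 1) to 4.08 (without Gsr-null sample 4). The limma adjusted p ran from 0.0522 to 0.326 for Lcn2 and from 0.0588 to 0.267 for Orm2. An unmoderated t test with a separate variance for each genotype gave adjusted p of 0.441 and 0.445. The number of members without overlap, 2 with Lcn2 counted, was 3 without the filter, where Orm3 enters, and 3 without WT sample 3. Leaving out 1 sample gave 2 to 3. Groups did not overlap in that direction for 0.648% of all tested genes and, without the filter, 0.539% of all probe sets. The shares with a sample left out were not computed. Array weights moved Serpina3n from 0.68 to 0.38, Steap4 from 0.37 to 0.17, Hp from 0.13 to 0.045 and Hpx from 0.17 to 0.10. Without Gsr-null samples 2 and 3, Hp was 0.013, Hpx 0.036 and Il1rn 0.057. Low signal limits Orm3, Il1rn and the WT values of Lcn2. The replicate numbers gave no sign of pairing. Correlations of deviations between samples sharing a number ran from -0.243 to 0.036, and for 0 of 5 numbers was the match its own best. So few samples cannot exclude a shared litter or day. Titles of Gsr-null samples carry a second number, which was not used. With the replicate block, which leaves out Gsr-null sample 6, 0 members were called and Lcn2 differed by 4.39.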

Other observations

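The 2 Gsr-null livers with the lowest Lcn2 of that genotype stood apart in another gene. Cidec, a lipid droplet protein of fat cells and fatty liver, reached 8.46 in Gsr-null sample 4 and 8.04 in Gsr-null sample 5, while the 9 livers left ranged from 2.46 to 3.17. Its relation to the acute phase genes was not tested.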
